A study of Mus musculus with 12 samples.

Results

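The Lpp and Bcl6 locus lies on mouse chromosome 16 and joins 2 protein-coding genes that face away from each other across a stretch with no other protein-coding gene. In mm10 coordinates Bcl6 (Gene ID 12053) spans chr16:23965050-23988866 on the minus strand and Lpp (Gene ID 210126) spans chr16:24393350-24992578 on the plus strand. The gene bodies are 404483 bp apart, and Lpp itself is 599229 bp long against 23817 bp for Bcl6. Every deposited ATAC-seq peak interval that touched these gene bodies, the span between them or 50 kb on either side was taken, which gave the window chr16:23915050-25042578 (1127529 bp). It held 628 of the 603679 distinct intervals deposited for the 12 libraries. Intervals that shared at least 1 bp were merged into 86 regions, of 81414 in the whole genome. The locus was chosen for study because of what these same libraries showed there, so its presence, width, summit and rank values under stimulation are described without a test. Which values led to the choice is not recorded, and the treatment contrast was taken as the one used.

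The study profiled open chromatin by ATAC-seq in splenic NK cells of mice. In this assay a transposase cuts open DNA and adds sequencing adapters there, so that accessible places gather fragments. Each of 4 groups had 3 libraries made from the same number of cells. The KO groups lack Regnase-1 in NK cells (Reg-1ΔNK), the WT groups carry the floxed allele alone (Reg-1fl/fl), and each genotype was either stimulated with IL-12 and IL-18 or left as a control; the Cre driver, the age of the mice and the length of stimulation are not stated in the sources used here. Zc3h12a encodes Regnase-1, a ribonuclease that cuts mRNAs of inflammatory genes, and IL-12 with IL-18 drives NK cells to make interferon gamma. The groups are called KO stimulated, WT stimulated, KO control and WT control. The labels do not say that the 3 libraries of a group came from separate animals, so any spread given here may be technical.

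BCL6 is a zinc-finger transcriptional repressor with a BTB domain. It is best known for driving germinal centre B cells and T follicular helper cells, and it acts in opposition to the repressor Blimp-1. LPP is a LIM-domain protein of the zyxin family found at focal adhesions and cell contacts, and its gene hosts the microRNA gene Mir28a. The gene-poor span upstream of Bcl6 is known from germinal centre B cells to hold a cluster of distal enhancers that act on Bcl6.

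Sequence was looked up at the start sites because these places held the strongest or the most variable intervals near a gene end. RefSeq lists 16 start sites in the window, and 11 of them lay in no deposited interval of any library. Both start sites of Bcl6 (23988852 and 23981283) and the upper start site of Lpp (24393350) lay in an interval in 12 of 12 libraries, while the inner start site of Lpp (24721855) lay in none. One of 5 listed start sites of the long noncoding RNA gene Gm31814 (24216510) lay in an interval in 0 KO stimulated, 3 WT stimulated, 1 KO control and 3 WT control libraries. The 250 bases before 4 of these sites are printed 5′ to 3′ on the strand of the gene, from RefSeq and assembly GRCm38.p6, the assembly behind mm10. Capitals mark matches to TTCNNNGAA, the spaced palindrome that STAT factors bind and that the BCL6 zinc fingers also read in a related form.

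Bcl6 upper start, chr16:23988853-23989102, minus strand: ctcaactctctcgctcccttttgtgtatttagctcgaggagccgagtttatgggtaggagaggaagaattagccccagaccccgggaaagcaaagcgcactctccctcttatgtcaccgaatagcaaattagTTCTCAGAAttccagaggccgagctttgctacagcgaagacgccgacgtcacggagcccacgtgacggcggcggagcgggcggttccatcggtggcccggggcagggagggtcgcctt

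Bcl6 inner start, chr16:23981284-23981533, minus strand: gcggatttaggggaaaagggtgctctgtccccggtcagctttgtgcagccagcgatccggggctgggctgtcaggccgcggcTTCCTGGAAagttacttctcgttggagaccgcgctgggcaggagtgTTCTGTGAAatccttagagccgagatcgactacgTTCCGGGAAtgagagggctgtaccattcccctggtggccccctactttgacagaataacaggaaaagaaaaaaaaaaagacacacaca

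Lpp upper start, chr16:24393100-24393349, plus strand: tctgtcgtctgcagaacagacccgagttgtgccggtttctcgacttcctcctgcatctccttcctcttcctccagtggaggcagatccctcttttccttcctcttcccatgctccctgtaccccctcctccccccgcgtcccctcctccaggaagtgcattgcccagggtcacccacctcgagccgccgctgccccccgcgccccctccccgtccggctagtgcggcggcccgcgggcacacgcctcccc

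Gm31814 internal start, chr16:24216511-24216760, minus strand: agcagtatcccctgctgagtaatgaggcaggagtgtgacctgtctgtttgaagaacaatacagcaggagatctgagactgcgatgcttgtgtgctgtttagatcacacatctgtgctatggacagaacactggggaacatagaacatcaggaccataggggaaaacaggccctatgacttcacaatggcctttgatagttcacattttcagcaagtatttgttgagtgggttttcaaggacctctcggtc

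The pattern occurred once before the upper Bcl6 start and 3 times before the inner Bcl6 start, and it was absent from the other printed windows. Among all 32851 RefSeq windows of this length, 7.02% held at least 1 match and 9 windows (0.0274%) held 3 or more. An AP-1 pattern (TGANTCA, in 6.75% of windows) searched on both strands was found in none of the printed windows. A match describes letters, not occupancy.

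Values below come from the peak lists that the authors deposited, 1 list per library. A rank is the place of an interval in its own library's list when ordered by the deposited −log10 q, with 1 the strongest; ranks of different libraries give order within each list and are not heights on a common scale. Whole lists held 35110, 42543 and 54303 intervals in KO stimulated, 56434, 55146 and 63128 in WT stimulated, 53258, 46971 and 52502 in KO control and 42520, 48324 and 53440 in WT control libraries. Counts of called regions therefore use the 35110 strongest intervals of every library. These equal lists were not equally strict: the weakest interval kept had a −log10 q of 1.31 for KO stimulated replicate 1 and up to 27.05 elsewhere. KO stimulated replicate 1 also stood apart in its calls, with a Jaccard index (regions called in both libraries over regions called in either) of 0.758 to 0.775 with the rest of its group, whereas that of KO stimulated replicate 3 with WT stimulated libraries was 0.837 to 0.840. An interval touched Zc3h12a in all 12 libraries. In the 1 kb below its lower end an interval was listed in 0 of 6 KO and 6 of 6 WT libraries, though the exons removed are not stated in the sources used here. All 9 NK marker genes held an interval in 12 of 12 libraries. Among markers of other cells that spleen could add, 1 of 7 B cell, 3 of 8 T cell, 3 of 7 myeloid and 2 of 5 erythroid genes did so. These were Pax5 for B cells and Cd3d, Cd5 and Cd28 for T cells. For myeloid cells they were Cd14, Itgax and Cd68, and for erythroid cells Klf1 and Epor. Those that held none in any library included Cd79b, Cd4, Cd8a, Lyz2, Adgre1, Hbb-bt and Slc4a1. Ebf1 was listed in 10 libraries and Csf1r in 8. Of the others, Cd22 was listed in 0 KO stimulated, 2 WT stimulated, 3 KO control and 3 WT control libraries and Cd3e in 1 KO stimulated library and in all 3 of each other group, and the part of other cells in the results was not tested.

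The intervals of the locus were spread unevenly (map of deposited intervals). Of the 86 regions, 1 covered the Bcl6 start, 1 lay further inside Bcl6 and 1 downstream of it, 26 lay between the genes, 1 covered the Lpp start, 52 lay inside Lpp and 4 downstream of Lpp. They were 202 to 12047 bp wide, with a median of 789.5 bp. The window edge cut through the last region on the Lpp side, chr16:25041643-25042734, held in 11 libraries, and the next one outside, 5299 bp past the edge, was held in 2 KO stimulated and 3 WT stimulated libraries and in no control library. On the Bcl6 side the first region inside was a single interval of WT stimulated replicate 2, and the next outside lay 15717 bp past the edge and was in 12 of 12 libraries. Over whole lists, 21 of the 86 regions were in all 12 libraries, beside 30.4% of the 81414 regions of the genome, and 18 were in 1 library only, beside 17.8%. No control library held 32 of them, beside 21.5% of all regions, and no stimulated library held 7, beside 13.7%. The locus was taken as chosen on that contrast, so nothing is read from the last 2 counts.

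**Figure D1:**
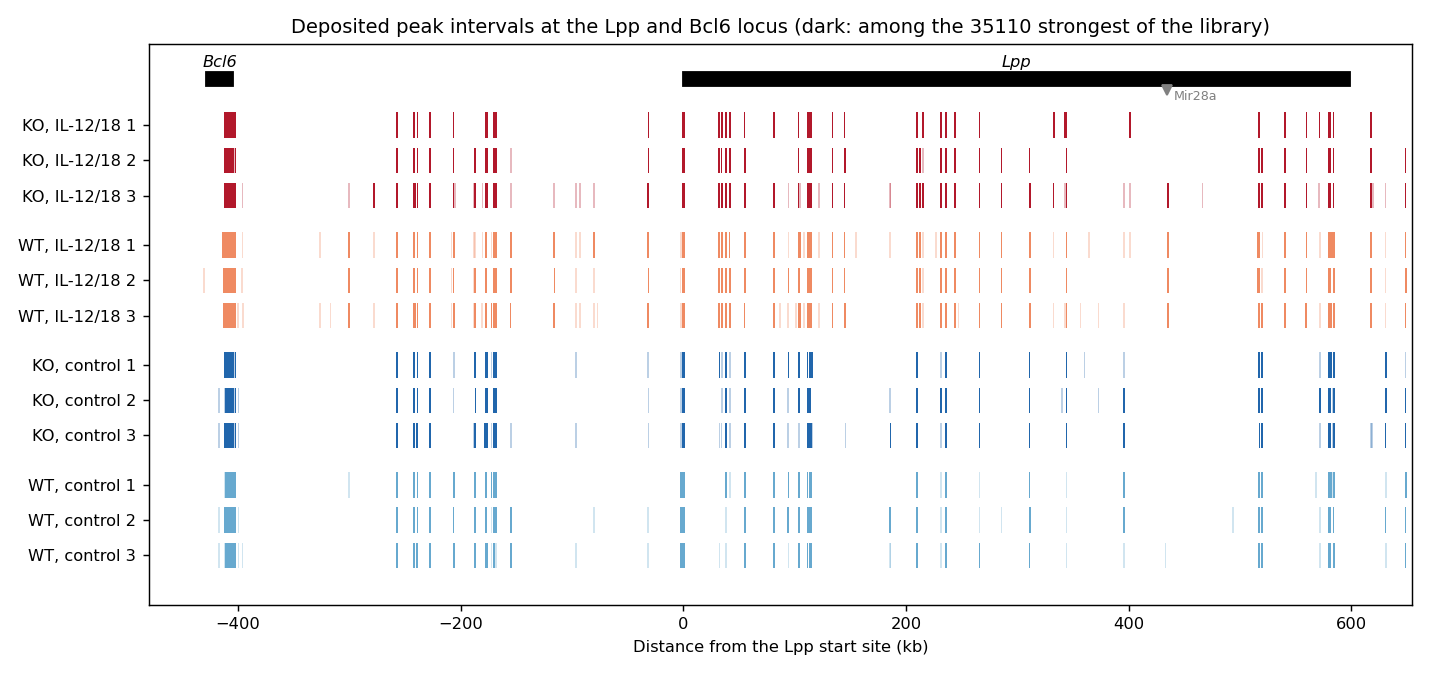
Deposited peak intervals of each library against distance from the Lpp start site in kb, with the bodies of Bcl6 and Lpp as bars and Mir28a as a triangle; dark ticks are among the 35110 strongest intervals of the library and pale ticks are weaker. The block at the Bcl6 start, 7 of the regions between 148 and 237 kb upstream of Bcl6 and the ticks at 113 kb inside Lpp run through all 12 rows, while several ticks inside Lpp are dark in the 6 stimulated rows and missing from the control rows.

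Stimulated libraries held more called regions at the locus than control libraries of either genotype, and most of the difference lay inside Lpp. Of the 86 regions, 56 had an interval among the strongest of at least 1 library and 52 had one in at least 2 libraries, which is the minimum for the whole-genome table of 45082 regions. Of those 52, the KO stimulated libraries called 36, 38 and 42 and the WT stimulated libraries 42, 43 and 45, against 27, 29 and 27 in KO control and 27, 28 and 24 in WT control libraries. The mean was 38.7 ± 3.06 in KO stimulated and 43.3 ± 1.53 in WT stimulated libraries, against 27.7 ± 1.155 in KO control and 26.3 ± 2.08 in WT control libraries (SD, n = 3 each). Stimulated and control libraries did not overlap in this count, in either genotype. Because the locus was taken as chosen on the treatment contrast, nothing is read from this separation. The number of all 45082 regions called in each library was not set beside it. Intervals touching the Lpp body numbered 29, 26 and 30 in KO stimulated and 28 in each WT stimulated library, against 21, 19 and 18 in KO control and 17, 16 and 14 in WT control libraries. Between the genes there were 13, 14 and 15 in KO stimulated and 16, 17 and 16 in WT stimulated libraries, against 12 in each KO control and 13, 13 and 11 in WT control libraries. There KO stimulated replicate 1 was level with the highest WT control libraries.

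**Figure D2:**
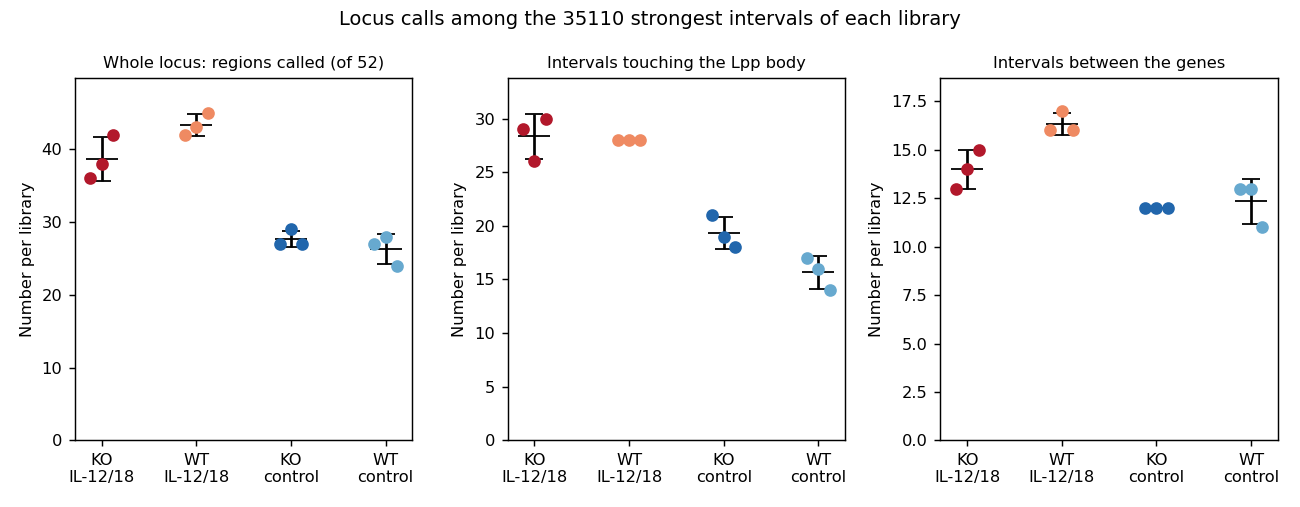
Number of locus regions called, of intervals touching the Lpp body and of intervals between the genes, per library among its 35110 strongest intervals; points are libraries, long ticks group means and bars 1 SD (n = 3). For the whole locus and for Lpp the 6 stimulated libraries sit above the 6 control libraries, and between the genes KO stimulated replicate 1 is level with 2 WT control libraries at 13.

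The covered length followed a less even pattern. Among the strongest intervals it was 49203 ± 5389 bp in KO stimulated and 61482 ± 2989 bp in WT stimulated libraries, against 39251 ± 834 bp in KO control and 44276 ± 3799 bp in WT control libraries (SD, n = 3 each). The mean length per interval was 1116 ± 82.2 bp in KO stimulated and 1337 ± 65.0 bp in WT stimulated libraries, against 1202 ± 22.9 bp in KO control and 1579 ± 269 bp in WT control libraries. Each WT stimulated library covered more of the locus than any other library, at 59422 to 64911 bp, while KO stimulated replicate 2, with 44362 bp, was below WT control replicates 2 and 3, with 46324 and 46612 bp.

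Across the whole table, an exact two-sided conditional permutation test compared calls in the 6 stimulated and 6 control libraries within genotype, with Benjamini-Hochberg adjustment at 0.05. It placed 13 of the 52 locus regions (25%) higher under stimulation and 0 lower, beside 6.62% and 5.08% of all 45082 regions. The locus was taken as chosen on this contrast, so nothing is read from the difference between those shares and no p is given for its regions. By place, 11 of the 13 lay inside Lpp, 1 between the genes and 1 downstream of Lpp. Both start regions were called in every library, so the test could not have placed either among them. In the strongest lists 9 of them had a call in all 6 stimulated libraries and none of the 6 control libraries, 2 had 6 calls against 1, and 2 had 5 against 0. Over whole lists, 6 of the 13 had no interval of any strength in a control library. In bulk libraries a larger share of cells open at a site and a wider opening in each cell cannot be told apart. The count was 6 with all deposited intervals and 4 with lists of 17555 intervals, and it was 13 or 14 with any 1 library left out. The count of lower regions became 1 without KO control replicate 1 or WT control replicate 1 and 2 without WT control replicate 3.

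The best placed of these regions lay outside Lpp, beyond its far end. The region 618 kb from the Lpp start, chr16:25010669-25012097, ranked 3180, 9657 and 8585 in KO stimulated and 9462, 8922 and 11127 in WT stimulated libraries, against 45135 in KO control replicate 3 and no interval in the other KO control or any WT control library. Toward the far end of Lpp, the region at 560 kb (chr16:24952693-24953578) ranked 27278, 18952 and 17900 in KO stimulated and 13269, 17203 and 17054 in WT stimulated libraries and was in no control list. The region at 541 kb (chr16:24933567-24934360), which overlaps the long noncoding RNA gene Gm52245, ranked 17391, 17627 and 15836 in KO stimulated and 21584, 19864 and 23520 in WT stimulated libraries and was likewise in no control list. At 541 kb each KO stimulated rank was better than each WT stimulated rank, and at 560 kb each was worse.

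In the first part of Lpp, regions that were strong under stimulation often had a weak counterpart in the control lists. At 35 kb (chr16:24427439-24428457) the ranks were 10848, 19686 and 15319 in KO stimulated and 20057, 18946 and 20921 in WT stimulated libraries, against 39872, 38389 and 47178 in KO control libraries and no interval in WT control libraries. The region at 32 kb (chr16:24424542-24426304) ranked 10234, 19685 and 20064 in KO stimulated and 20808, 20644 and 22495 in WT stimulated libraries, against 31684 and 42143 in KO control replicates 1 and 3 and 44784 in WT control replicate 3. At 42 kb (chr16:24434524-24435616) they were 24264, 30291 and 20065 in KO stimulated and 21837, 21557 and 23290 in WT stimulated libraries, against 45518, 46149 and 48354 in KO control libraries and 39789 in WT control replicate 1. All but 1 of the control ranks at these 3 regions were below the equal list length. The region at 39 kb lies among them and was in all 12 lists. It ranked 16701 to 18940 in KO stimulated and 15800 to 16430 in WT stimulated libraries. Its control ranks were 33425, 32972 and 32381 in KO and 28158, 35688 and 35771 in WT libraries. Stimulated and control ranks did not overlap there. It was called in 3 libraries of every group except WT control, with 1, so the test could not have placed it among the higher regions.

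Further inside Lpp the control lists were mostly empty at such places. The region at 134 kb (chr16:24526755-24528043) ranked 9946, 16993 and 14554 in KO stimulated and 18988, 17045 and 16524 in WT stimulated libraries and was in no control list. At 244 kb (chr16:24637120-24638189) the ranks were 17390, 16994 and 18765 in KO stimulated and 15652, 13972 and 16628 in WT stimulated libraries, again with no control interval. Both regions were in 6 of 6 stimulated and 0 of 6 control lists of any strength. The region at 286 kb (chr16:24678836-24679563) was missing from KO stimulated replicate 1 and ranked 19322 and 20066 in the other KO stimulated libraries and 19394, 19321 and 17931 in WT stimulated libraries, against 45206 in WT control replicate 2 alone. At 213 kb (chr16:24606065-24606452) it was again KO stimulated replicate 1 that had no interval, the others ranking 29464 and 21804, with 21053, 17202 and 22293 in WT stimulated libraries and no control interval. The region at 231 kb (chr16:24624330-24625257) was in all 12 lists, at ranks of 13022, 20078 and 29485 in KO stimulated and 22678, 23640 and 21224 in WT stimulated libraries, against 38647, 34587 and 41215 in KO control and 38589, 36397 and 37912 in WT control libraries. At 231 kb the stimulated and control ranks did not overlap. All stimulated ranks there fell within the equal list length. The control ranks fell outside it, except that of KO control replicate 2 (34587), and the region counted as higher on those calls.

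The single such region between the genes lay closer to Lpp than to Bcl6, 373 kb upstream of the Bcl6 start (chr16:24361583-24362405). It ranked 19853, 27164 and 20063 in KO stimulated and 25781, 23389 and 30267 in WT stimulated libraries, against 42548, 41545 and 39349 in KO control and 40153 and 47761 in WT control replicates 2 and 3. The 13th region, at 145 kb in Lpp (chr16:24537921-24538843), had the weakest median rank of the 13, with 32874 to 34238 in KO stimulated and 27389 to 29717 in WT stimulated libraries and no control interval.

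**Figure D3:**
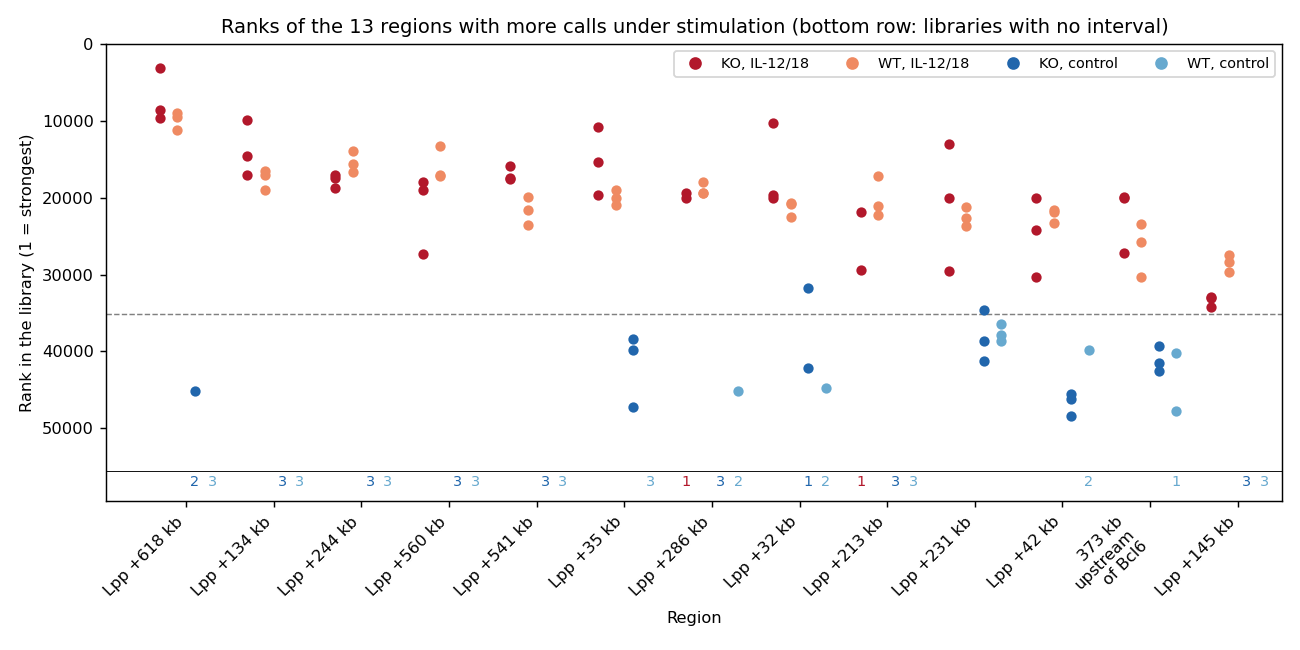
Within-library rank of the 13 locus regions with more calls under stimulation, best stimulated median on the left; the rank axis runs downward from 1, the dashed line marks the equal list length of 35110, and numbers in the bottom row count libraries of a group with no interval. Stimulated points lie above the line in every region shown, and control points are below it or missing except for 1 KO control library each at Lpp +32 kb and Lpp +231 kb.

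Stimulated and control calls were also counted within each genotype. The locus was taken as chosen on the treatment contrast, so nothing is read from these counts or their shares. Called in 3 of 3 KO stimulated and 0 of 3 KO control libraries were 10 locus regions (19.2%), beside 5.19% of all regions. The opposite pattern was seen in 1 region (1.92%), beside 4.65%. Called in 3 of 3 WT stimulated and 0 of 3 WT control libraries were 17 (32.7%), beside 9.42%. None had the opposite pattern, beside 6.42%. The KO count was 12 without KO stimulated replicate 1 or without replicate 2, and 10 without KO stimulated replicate 3. With lists of 17555 intervals the counts were 3 in KO and 6 in WT. The opposite pattern was seen in 2 regions in KO without KO control replicate 1, and in WT in 1 without WT stimulated replicate 3 and 2 without WT control replicate 3.

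At Bcl6 itself 1 very wide region covered the upper start and the first part of the gene in every library, and what differed was the place of its strongest summit. The region, chr16:23979712-23991758, covers both Bcl6 start sites and part of the long noncoding RNA gene Gm31527. It ranked 1132, 5097 and 5900 in KO stimulated and 4212, 7190 and 7183 in WT stimulated libraries, against 4484, 3071 and 3178 in KO control and 3706, 4092 and 3342 in WT control libraries. Apart from KO stimulated replicate 1, the best of all 12, the stimulated ranks were no better than 4212, and the control ranks lay between 3071 and 4484. The covered length, here and for the single regions below over whole lists, was 9087, 8776 and 10387 bp in KO stimulated and 10937, 11492 and 11538 bp in WT stimulated libraries, against 9548, 9261 and 10035 bp in KO control and 10065, 10540 and 10331 bp in WT control libraries, so WT stimulated libraries were the widest and KO stimulated libraries overlapped both control groups.

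In all 6 stimulated libraries the strongest summit of the Bcl6 region sat inside the gene, at 23984553 to 23984990, which is 3862 to 4299 bp from the upper start. In 5 of 6 control libraries it sat at 23988757 to 23988796, only 56 to 95 bp inside that start, next to the first sequence printed above; WT control replicate 1 had it at 23984624, inside the gene like the stimulated libraries. Every library had a summit within 500 bp of both places, 3.89 kb (inner) and 0.07 kb (start) from the upper start. The highest deposited fold near each place stands for the inner and the start summit, compared within each library. Some libraries, such as KO stimulated replicate 3, had more than 1 summit near the inner place, so the inner fold is the highest among them. The fold at the inner summit divided by that at the start summit was 2.85, 1.01 and 1.28 in KO stimulated and 1.24, 1.26 and 1.01 in WT stimulated libraries, against 0.841, 0.674 and 0.647 in KO control and 1.24, 0.748 and 0.701 in WT control libraries. The ratios of stimulated and control libraries overlapped through WT control replicate 1 alone. These summit places were picked after their values were seen.

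The Lpp start region, chr16:24390665-24395180, was in every library and also covers the start of the antisense long noncoding RNA gene Lppos. Its ranks were 9691, 8455 and 5948 in KO stimulated and 4955, 5638 and 6301 in WT stimulated libraries, against 11960, 11286 and 11241 in KO control and 10395, 9163 and 8709 in WT control libraries. Within each genotype every stimulated library ranked it better than every control library, but KO stimulated replicate 1 lay within the WT control range. The covered length over whole lists was 2289, 2522 and 2595 bp in KO stimulated and 3937, 3868 and 3514 bp in WT stimulated libraries, against 2840, 2947 and 2878 bp in KO control and 2805, 3217 and 4280 bp in WT control libraries. Over whole lists KO stimulated lengths were all below KO control lengths, while the WT groups overlapped. Among the strongest intervals the KO control mean was 2573 bp, so KO stimulated replicate 3, with 2595 bp, was not below every KO control library. The WT order depended on the lists: the mean was 3773 bp in WT stimulated and 3434 bp in WT control libraries over whole lists, but 3051 bp in WT stimulated and 3434 bp in WT control libraries among the strongest intervals.

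The best placed region inside Lpp under stimulation lay 113 kb from its start, at chr16:24504246-24509257. It ranked 4084, 3724 and 3461 in KO stimulated and 2681, 2048 and 2366 in WT stimulated libraries, against 10980, 11021 and 9411 in KO control and 10484, 8905 and 10231 in WT control libraries. No stimulated rank overlapped a control rank, and the WT stimulated ranks were all better than the KO stimulated ranks. Its covered length was 3916, 3946 and 4172 bp in KO stimulated and 4885, 4692 and 5012 bp in WT stimulated libraries, against 3318, 2704 and 3538 bp in KO control and 3301, 3560 and 4278 bp in WT control libraries. WT control replicate 3 was wider than the KO stimulated libraries.

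This region also held a pair of summits whose order differed between treatments. The strongest summit lay at 24506957 to 24507015 in 5 of 6 stimulated libraries and at 24508102 in KO stimulated replicate 3, whereas all 6 control libraries had it at 24508059 to 24508084. The places, again picked after their values were seen, are 1099 bp apart. The deposited fold at the first divided by that at the second was 1.49, 1.16 and 0.937 in KO stimulated and 1.07, 1.34 and 1.10 in WT stimulated libraries, against 0.275, 0.339 and 0.339 in KO control and 0.211, 0.190 and 0.251 in WT control libraries. Stimulated and control ratios did not overlap, and within controls the KO ratios were all above the WT ratios.

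**Figure D4:**
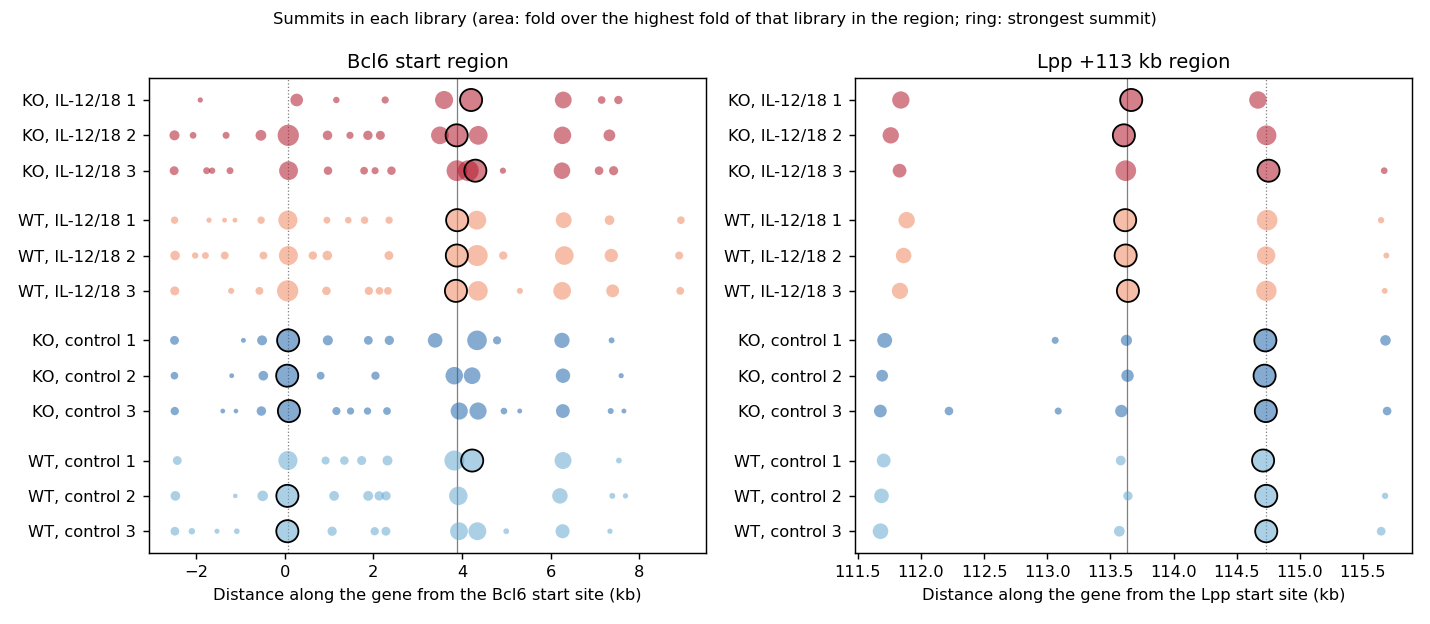
Summits within the Bcl6 start region and the Lpp +113 kb region, against distance along the gene from its start site in kb; circle area shows the deposited fold relative to the highest fold of that library in the region, and a ring marks the strongest summit. In the Bcl6 region the ring sits 3862 to 4299 bp inside the gene in the 6 stimulated libraries and in WT control replicate 1 and 56 to 95 bp inside it in the other 5 control libraries; in the Lpp region it sits at the place near 113.63 kb (solid line) in 5 stimulated libraries and near 114.73 kb (dotted line) in the other 7.

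Summit order was compared between treatments only in the Bcl6 start region and the region 113 kb inside Lpp. How common such moves were is therefore not known, and the ranges below do not separate the treatments. Over the 21 regions with an interval in all 12 lists, the strongest summit varied between libraries by a median range of 255 bp. The range was 100 bp or less in 4 regions and above 1000 bp in 4, and the largest, 4243 bp, was that of the Bcl6 start region.

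Regions called in every library made up 15 of the 52 at the locus (28.8%), beside 46.8% of all regions, and 6 of the 15 lay between the genes. Their ranks were compared by whether groups overlapped. Every stimulated library ranked 3 of the 15 better than every control library, beside 10.8% of all such regions, and every stimulated library ranked 3 worse, beside 12.5%. The first 3 were all inside Lpp, at 113, 210 and 517 kb from its start, and the other 3 all lay between the genes, 163, 227 and 234 kb upstream of Bcl6. The count of better ranked regions was 7 with all deposited intervals and 1 with lists of 17555 intervals. In width among the strongest intervals, 1 region, 166 kb upstream of Bcl6, was wider in every stimulated than in every control library, beside 3.17% of all such regions, and none was narrower, beside 1.96%.

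Of the regions upstream of Bcl6, that at 163 kb had the best median rank (chr16:24150701-24152937). It ranked 7035, 8929 and 8140 in KO stimulated and 8654, 10503 and 11126 in WT stimulated libraries, against 5594, 5376 and 6128 in KO control and 5248, 5773 and 4754 in WT control libraries. At 234 kb (chr16:24222477-24224223) the ranks were 12564, 14186 and 17465 in KO stimulated and 15799, 14325 and 14365 in WT stimulated libraries, against 9467, 9658 and 11941 in KO control and 9039, 8202 and 7940 in WT control libraries. Both places were ranked lower in the list by all stimulated libraries than by any control library, while the genotypes overlapped within the stimulated libraries at each.

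The region 227 kb upstream of Bcl6 (chr16:24215048-24217626) is described because its 4 groups did not overlap, and it was picked after its values were seen. It covers the Gm31814 start site printed above. It ranked 24263, 17947 and 25038 in KO stimulated and 15651, 15747 and 12693 in WT stimulated libraries, against 9003, 11608 and 8910 in KO control and 5746, 4739 and 4272 in WT control libraries. From worst to best, the order of the groups was KO stimulated, WT stimulated, KO control and WT control. Its covered length was 1303, 876 and 1412 bp in KO stimulated and 2017, 1705 and 2076 bp in WT stimulated libraries, against 1809, 1676 and 1611 bp in KO control and 2310, 2393 and 2579 bp in WT control libraries. In both treatments the KO intervals were the shorter ones, with overlap between KO control and WT stimulated libraries.

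**Figure D5:**
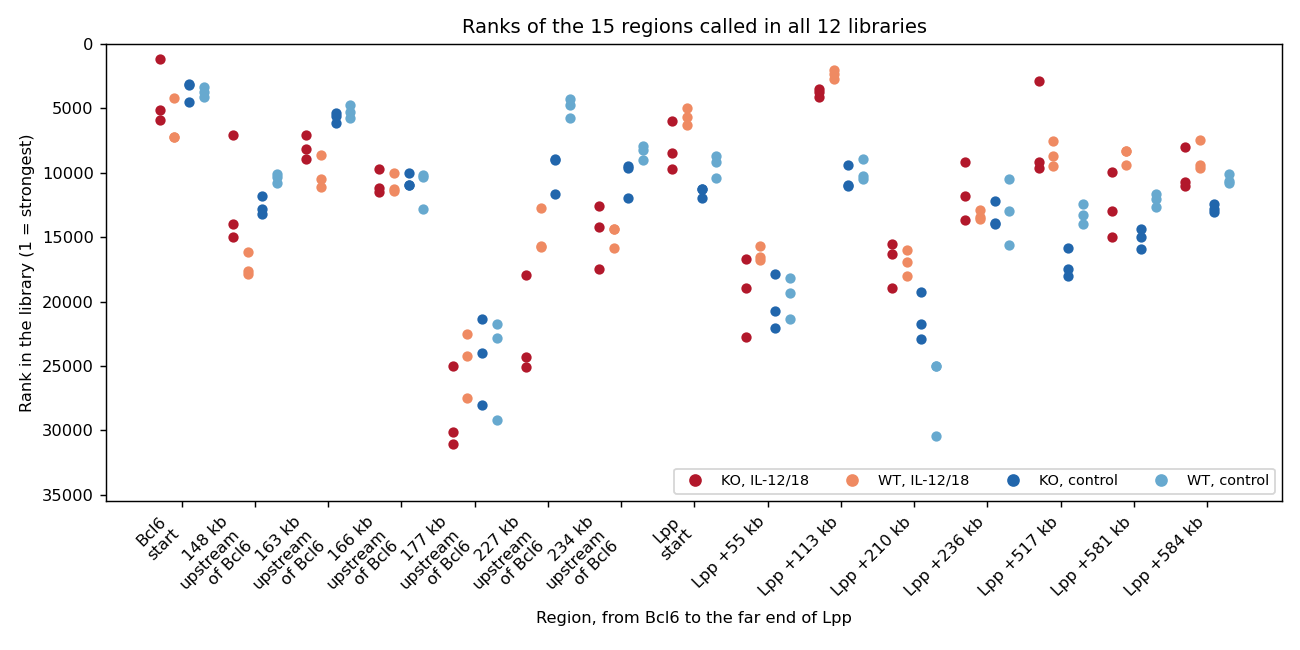
Within-library rank of the 15 locus regions called in all 12 libraries, ordered from Bcl6 to the far end of Lpp; points are libraries and the rank axis runs downward from 1. At Lpp +113 kb the stimulated libraries (2048 to 4084) lie above the control libraries (8905 to 11021), and 227 kb upstream of Bcl6 the 4 groups separate in the opposite order, with 17947 to 25038 in KO stimulated libraries at the bottom and 4272 to 5746 in WT control libraries at the top.

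Between genotypes no locus region passed the whole-table test. The exact two-sided conditional permutation test with Benjamini-Hochberg adjustment called 0 of 52 locus regions higher and 0 lower in KO, and 0% of all 45082 regions either way. At an unadjusted exact p of 0.05 or less there was 1 region at the locus, beside 1.06% of all regions, and the margins allowed such a p for 2 of the 52, beside 4.03% of all regions. That region lay 250 kb upstream of Bcl6 within Gm31814 (chr16:24238054-24238838), with an unadjusted exact permutation p of 0.02 and an adjusted p of 0.147. It ranked 39017 and 35280 in KO stimulated replicates 2 and 3 and 22105, 32218 and 29933 in WT stimulated libraries, against 38426 in KO control replicate 3 and 33012 and 29649 in WT control replicates 2 and 3. KO stimulated replicate 3 missed the equal list length of 35110 narrowly there, so the difference in calls rests in part on where that length falls. Genotype values may also have entered the choice of the locus, so nothing is read from the unadjusted p of this region.

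Within one treatment, 5 locus regions were called in 3 of 3 libraries of one genotype and 0 of 3 of the other, where 3 against 3 libraries cannot go below an exact p of 0.1. Under stimulation 0 regions were called in every KO and no WT library and 3 in no KO and every WT library, beside 1.03% and 1.71% of all regions. In controls 1 was called in every KO and no WT library and 1 in no KO and every WT library, beside 1.14% and 0.892%. The counts at the locus are too small to read against those shares. Single libraries moved them: 2 regions were in every KO and no WT stimulated library without KO stimulated replicate 2, and each control count was 2 without WT control replicate 1 or 3.

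The 3 regions called in no KO stimulated and every WT stimulated library all lay between the genes, at 104, 250 and 289 kb upstream of Bcl6. Near 104 kb (chr16:24092766-24093451) the interval ranked 39905 in KO stimulated replicate 3 and 35046, 35100 and 30992 in WT stimulated libraries, against 37352 in WT control replicate 1. At 289 kb, within the long noncoding RNA gene Gm38456 (chr16:24277309-24277845), it ranked 40952 in KO stimulated replicate 3 and 32973, 30197 and 33503 in WT stimulated libraries and was in no control list. At 104 and 289 kb all the WT stimulated ranks were between 30197 and 35100, near the bottom of the equal lists, whereas at 250 kb they began at 22105. KO stimulated replicate 3 held an interval at each of the 3 places, at a weaker rank than any WT stimulated library.

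Among controls, the region 198 kb upstream of Bcl6 (chr16:24186127-24188494) was called in no KO and every WT library. Its ranks were 17388, 24993 and 24589 in KO stimulated and 21836, 18582 and 17154 in WT stimulated libraries, against 52124 and 40476 in KO control replicates 1 and 2 and 28156, 34303 and 33824 in WT control libraries. The region 344 kb inside Lpp (chr16:24737009-24738092) was called in every KO control and no WT control library, and ranked 11142, 19687 and 28321 in KO stimulated and 32974, 35101 and 31785 in WT stimulated libraries, against 27981, 28046 and 32382 in KO control and 37354, 47723 and 51798 in WT control libraries. There each KO rank was better than each WT rank of the same treatment, whereas at 198 kb the stimulated groups overlapped. Among the 15 regions called in every library, KO libraries ranked 2 worse than WT libraries in both treatments, beside 3.13% of all such regions, and none better, beside 2.36%. One of the 2 was the region at 227 kb, and the other lay 581 kb inside Lpp (chr16:24972222-24975678), with ranks of 9947, 12975 and 15016 in KO stimulated and 8339, 9430 and 8302 in WT stimulated libraries, against 15012, 14339 and 15920 in KO control and 12010, 12681 and 11650 in WT control libraries.

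The region nearest to Mir28a was present under stimulation only in part of the libraries. It lies 435 kb inside Lpp (chr16:24828426-24828895), 486 bp from the hairpin at chr16:24827855-24827940, and it was singled out after its values were seen. It ranked 24590 in KO stimulated replicate 3 and 20559, 27585 and 25055 in WT stimulated libraries, with no interval in the other KO stimulated libraries or in any control library. Mature miR-28a is shown because Mir28a is the annotated feature closest to that region apart from Lpp; capitals mark the seed, bases 2 to 8, and the sequences are those of RefSeq in GRCm38.p6, plus strand.

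mmu-miR-28a-5p, chr16:24827868-24827889: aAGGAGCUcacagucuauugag

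mmu-miR-28a-3p, chr16:24827908-24827929: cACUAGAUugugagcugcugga

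The seeds of the arms differ, AGGAGCU in the 5p arm and ACUAGAU in the 3p arm. No interval of any library overlapped the hairpin itself.

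Regions were also counted by gene. With each region given to the nearest protein-coding gene within 50 kb, Lpp received 38 regions, a number that is not scaled to its length. It was called at 29.0 ± 2.65 regions in KO stimulated and 30.3 ± 0.577 in WT stimulated libraries, against 18.7 ± 1.155 in KO control and 15.7 ± 1.53 in WT control libraries (SD, n = 3 each). Bcl6 received 1 region, called in all 12 libraries, so no likeness to other genes can be given for it. Across the 12 libraries, the genes with 10 or more regions whose called number went most closely with that of Lpp, among 527 compared, were Agpat4 (Pearson r = 0.990), Mob3b (0.981) and Atp8b4 (0.969). These correlations are descriptions over libraries that share the same 2 treatments and the same equal lists. Agpat4, an acyltransferase of phospholipid synthesis, was called at 8.67 regions on average in KO stimulated and 9.67 in WT stimulated libraries, against 4.67 in KO control and 3.33 in WT control libraries. Atp8b4, a P4-type ATPase, was called at 15.7 in KO stimulated and 19.0 in WT stimulated libraries, against 9 in KO control and 7.67 in WT control libraries.

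Genes that act with BCL6 had shares of regions past the test near those of all regions, in both directions. In a list of 26 partners, opponents and targets of BCL6, 25 had regions, and by the whole-table test regions were higher only in 7 genes, lower only in 6, both in 1 and neither in 11. Of their 214 regions 4.67% were higher and 7.01% lower, near the 6.62% and 5.08% of all regions. Prdm1, which encodes Blimp-1, had 3 higher regions and averaged 12 called regions in KO stimulated and 13.3 in WT stimulated libraries, against 9.67 in KO control and 8 in WT control libraries. Zbtb16, which encodes the BTB zinc-finger factor PLZF, had 4 lower regions and averaged 3.33 called regions in KO stimulated and 3.33 in WT stimulated libraries, against 7.67 in KO control and 8.67 in WT control libraries. Tcf7, encoding TCF-1, had 3 lower regions, and the follicular chemokine receptor gene Cxcr5 had 2, while Bach2, encoding another BTB repressor, had 1 higher and 2 lower.

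Partners of LPP at focal adhesions were counted in the same way. Of 18 zyxin-family and focal adhesion genes 15 had regions, and regions were higher only in 4, lower only in 2, both in 2 and neither in 7, with 8.97% of 78 regions higher and 6.41% lower, beside the 6.62% and 5.08% of all regions. Nothing particular to the list is read from these shares. Evl, of the Ena/VASP family that zyxin proteins bind, had 2 higher and 2 lower regions, and Ptk2, encoding focal adhesion kinase, had 1 of each. Zyx itself, the founding zyxin gene, had 2 regions and averaged 1.67 calls in KO stimulated and 2.00 in WT stimulated libraries, against 2.00 in KO control and 2.00 in WT control libraries, with neither region past the test. Between genotypes no region of either list passed the test.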

How the data were processed

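Peak lists of 12 ATAC-seq libraries were used, 1 list per library, in 4 groups of 3 taken from the sample titles. Per the submitters' processing notes the tools were MACS2 2.1.1.20160309, deepTools 3.4.2, SAMtools 1.15.1, Bowtie2 2.3.4.1, cutadapt 4.1 and FastQC 0.11.9, with build mm10; thresholds, filters and any shift of reads for the transposase are not given in the sources used here. The authors deposited, for each summit, a fold (a ratio over the background of its own library), a −log10 p, a −log10 q, a score that repeats the −log10 q and was not used, and the summit's offset within its interval. These are the authors' own values and served only to order and describe peaks within a list. Total read depth is unknown, since the lists give none.

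Chromosomes 1 to 19, X and Y were kept. Summits of 1 interval were joined under the strongest, lists were cut to the 35110 strongest intervals by −log10 q, intervals sharing at least 1 bp were merged, and regions in at least 2 libraries were tested. The exact test had 400 rearrangements and a smallest p of 0.005, with Benjamini-Hochberg adjustment at 0.05 over testable regions, and was tested on simulated data (Python 3.11.15, numpy 2.4.6, pandas 2.3.3). Genes, start sites and sequences came from RefSeq tables of GRCm38.p6, where both genes and all 26 and 18 listed partner genes matched; exons and untranslated regions are not given here. Named regions were those at the gene starts, the 12 best ranked past a test, those in 3 of 3 against 0 of 3 libraries between genotypes, and the 3 best over 12 libraries. Some genes of the marker and partner lists are not reported here by name. The members, the lists and these rules were chosen with earlier results of these data known. Same-numbered libraries did not deviate together (correlations of -0.0254 to 0.0481 over 12 pairs, against a minimum of 0.1), so the numbers were not taken to pair them. The alternatives tried were whole lists, lists of 17555 intervals, 20 kb flanks, a call covering 50% of the region, windows of 250 bp either side of a summit, ranking by fold or as a percentile, regions in 1 library, a replicate block and each library left out.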

Additional observations from a re-analysis of the deposited data

Results flagged for a closer look

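The region 148 kb upstream of Bcl6 (chr16:24135340-24137455) is listed because the genotypes differed in opposite directions in the 2 treatments. It ranked 7034, 13949 and 15015 in KO stimulated and 17598, 17837 and 16114 in WT stimulated libraries, so that every KO library ranked it better. In control cells it ranked 13192, 11789 and 12845 in KO and 10109, 10761 and 10289 in WT libraries, so that every KO library ranked it worse. The KO minus WT difference in mean rank was -5184 under stimulation, with means of 11999 in KO stimulated and 17183 in WT stimulated libraries, beside means of 12609 in KO control and 10386 in WT control libraries. The difference between the treatments was not tested, and ranks give order within each list only. KO stimulated replicate 1, which had the shortest list, holds the best of the KO stimulated ranks. Without it the KO mean under stimulation was 14482 and the difference -2701.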

How the results depend on the processing

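Of 144 comparisons of a locus result with its value under another setting, 111 stayed within 1.5 times or 1 SD, 32 moved and 1 reversed; with single libraries left out, 224 of 240 stayed, 15 moved and 1 reversed. Keeping regions of 1 library moved none of the 20 locus results, and ranks as percentiles, which bear on the 2 rank counts alone, moved neither. Ranking by fold also moved none. Within each library the fold and the −log10 q rose together at the summits compared above, so that setting is no separate check. The causes of the moves below were not tested.

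Regions higher under stimulation numbered 13, with 6 from whole lists and 4 from lists of 17555 intervals, and 13 to 14 with a library left out. Lower regions numbered 0, with 1 when a call had to cover 50% of the region and 0 to 2 with a library left out. Regions in every KO stimulated and no KO control library numbered 10, with 6 from whole lists, 3 from the shorter lists and 10 to 12 with a library left out. The opposite number, 1, became 0 from whole lists, 2 from the shorter lists, 3 with 50% cover and 0 with 20 kb flanks, and 1 to 2 with a library left out. The difference in mean called regions between KO stimulated and KO control libraries, 11, was 7.33 from whole lists, 4 from the shorter lists and 8.33 to 11.7 with a library left out. Between WT stimulated and WT control libraries regions in every one against none numbered 17, with 6 from the shorter lists and 17 to 18 with a library left out; the opposite was 0, with 2 from summit windows and 0 to 2 with a library left out. Their difference in means, 17, was 22.7 from whole lists, 6 from the shorter lists, 19.3 with 50% cover, 15 from summit windows and 14.8 to 17.8 with a library left out.

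Between genotypes under stimulation, regions in no KO and every WT library numbered 3, with 1 from whole lists, 1 from summit windows and 3 to 4 with a library left out; the opposite was 0, and 0 to 2. The difference in means, -4.67, was -13.7 from whole lists, -9 with 50% cover, -1.67 from summit windows and -7.33 to -3.33 with a library left out. In controls, regions in every KO and no WT library numbered 1, with 0 from the shorter lists, 2 with 50% cover and 1 to 2 with a library left out; the opposite, 1, was 0 from whole lists, the shorter lists and 50% cover, and 1 to 2 with a library left out. The difference in means, 1.33, reversed to -0.667 from the shorter lists and was -0.833 without WT control replicate 3, in a range of -0.833 to 2. Covered length differed between WT stimulated and WT control libraries by 17206 bp, by 7860 bp in the shorter lists and by 15014 to 18374 bp with a library left out; between KO stimulated and KO control libraries it differed by 9952 bp, with 7049 to 12373 bp. Summit windows have a fixed length and give no covered length. Regions ranked better in every stimulated library numbered 3, with 7 from whole lists, 1 from the shorter lists, 1 with 50% cover, 5 from summit windows and 3 to 4 with a library left out; those ranked worse numbered 3, and 3 to 4.

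With the replicate number as a block, 9 locus regions were higher and 0 lower under stimulation and 0 differed by genotype, while the whole table held 2617 regions that differed by treatment, against 5277 without the block, and 57 by genotype, against 0. Without the block the treatment count was 1539 from whole lists and 3011 from the shorter lists. By the minimum correlation of 0.1 the numbers were not taken to pair the samples, though 7 of 12 pairs matched best with their own number.

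Limits are that depth is unknown, that equal lists were not equally strict, that presence and rank do not measure accessibility on a common scale, and that 3 libraries a group allow no exact p under 0.1 within a treatment.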
